A study of Mus musculus with 50 samples.

Results

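Integrins are adhesion receptors made of 1 alpha and 1 beta subunit, and the 10 subunits described here are those by which microglia are known to hold on to other cells and to the matrix: Itgam, Itgal, Itga4, Itga5, Itga6, Itga9, Itgav, Itgb1, Itgb2 and Itgb5. They were chosen by gene symbol, and are 10 of the 53700 genes in the count files and 10 of the 16696 that passed a filter on low counts. The RNA came from microglia sorted from the hippocampi of 50 male C57BL/6J mice as cells with intermediate CD45 and with CD11b on their surface. The study asked how stress in the first days of life changes microglia at once and in adulthood, and whether it changes their response to a bacterial stimulus. Early-life stress (ELS) meant that dam and pups were kept with limited bedding and nesting material from postnatal day (P) 2 to P9, while controls (CTR) had a standard nest. At P9 there were 12 control pups (P9-CTR) and 13 stressed pups (P9-ELS), for which the labels name no injection. At P200 the mice were adults injected intraperitoneally with phosphate-buffered saline (PBS) or with lipopolysaccharide (LPS, 1 mg/kg), a component of the bacterial cell wall, and killed 3 hours later. These were 7 control mice given PBS (P200-CTR-PBS), 6 stressed mice given PBS (P200-ELS-PBS), 7 control mice given LPS (P200-CTR-LPS) and 5 stressed mice given LPS (P200-ELS-LPS). Mice are named by their group and the 2 numbers in their label joined by a hyphen, the first of which, not explained there, was taken as that of the nest. By this number, P9-CTR came from 5 nests, P9-ELS from 4 and each P200 group from 5. Litters, not single pups, were assigned to stress or control at P2. The main tests count mice of 1 nest separately, so n is of mice and not of nests. Counts summed per nest are among the alternatives.

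Each library held 13605733 to 31020979 counts in P9-CTR, 5152838 to 36031616 in P9-ELS, 13996535 to 28616316 in P200-CTR-PBS, 18257922 to 34990227 in P200-ELS-PBS, 13900212 to 42231258 in P200-CTR-LPS and 15338010 to 20923733 in P200-ELS-LPS. Levels are given as counts scaled by TMM to a common library size (CPM), which compare mice but not genes. Divided by the kilobases of exon (RPKM) they also compare genes, though only roughly. The length is that of all annotated exons together, such as 16732 bases for Itga4 and 3244 for Itgb2. Exons not used in these cells would lower the RPKM of a gene by an amount not known here. A gene was said to rise, fall or change where its adjusted p was under 0.05 by edgeR's quasi-likelihood test with Benjamini-Hochberg adjustment, taken over all 16696 genes. Fold changes are on the log2 scale and have 95% intervals. Libraries that stood apart were P9-ELS mouse 19-3 with 12482 genes above 0 counts and the fewest counts of all (5152838), P200-CTR-PBS mouse 1-1 with 12854 such genes and P9-ELS mouse 19-2 with 15731, against a median of 18898 over all mice. P9-ELS mouse 19-2 also had the lowest Itga5 and Itgb2 of all pups, at 0.355 and 112 CPM, and mouse 19-3 the highest Itga5 (59.7 CPM) and the lowest Itgam (113 CPM). Where a call changed without these 3 mice, the value without them is given.

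The subunits pair by rules set by their structure. Itgb2 (CD18) joins Itgam (CD11b) to make complement receptor 3 and Itgal (CD11a) to make LFA-1, the leukocyte integrins that bind ICAM-1 and, for complement receptor 3, opsonised material. Itgb1 joins Itga4, Itga5, Itga6 and Itga9 into receptors for VCAM-1 and fibronectin, for fibronectin, for laminins, and for tenascin and osteopontin, and Itgav joins Itgb5 into a receptor for vitronectin and for the MFG-E8 that coats dying cells. CD11b, the protein of Itgam, was a gate of the cell sort, so the cells were chosen by it. Myelin was removed on Percoll from adult tissue and not from P9 tissue, so this step and age cannot be told apart.

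Per length, Itgb2 was the most abundant of the 10 subunits in every group, and Itgal and Itga4 were the least abundant. In P9-CTR the mean RPKM (± SD, n = 12) was 132 ± 17.9 for Itgb2, 74.5 ± 19.6 for Itgb1, 40.3 ± 5.33 for Itgam, 26.7 ± 3.35 for Itgb5 and 21.6 ± 3.04 for Itga6. Below them came Itga9 at 4.76 ± 1.04 RPKM, Itgav at 4.52 ± 0.815 and Itga5 at 3.78 ± 1.21, each not apart from the next of these 3 beyond the spread between mice. Itgal at 1.22 ± 0.489 and Itga4 at 0.137 ± 0.0789 RPKM closed the order. The order in P9-ELS was the same for the first 5, with Itgb5 and Itga6 not apart beyond their spread, and Itgav, Itga5 and Itga9 again lay together. In P200-CTR-PBS (n = 7) Itgb2 stood at 260.4 ± 21.4 RPKM, far above Itgb5 at 50.5 ± 7.11, Itgam at 39.6 ± 5.76 and Itgb1 at 29.9 ± 9.29. Itgb1, at rank 2 in P9-CTR, was thus at rank 4 in adult controls, although it and Itgam did not differ beyond the spread. Itga6 (13.4 ± 2.32 RPKM) and Itgav (9.57 ± 2.16) followed, then Itga5 (4.43 ± 1.2) and Itga9 (4.02 ± 0.728) together, with Itga4 and Itgal last. In P200-ELS-PBS (n = 6) Itgb2 stood at 269.9 ± 18 RPKM, and Itgb1 (45.8 ± 10.2), Itgb5 (45.8 ± 9.50) and Itgam (40.7 ± 10.1) did not differ beyond their spread.

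After LPS, Itga5 moved from rank 7 to rank 3 in control mice, at 46.1 ± 44.5 RPKM (n = 7), and to rank 2 in stressed mice, at 56.5 ± 38.7 RPKM (n = 5). Its spread was wide, and it did not differ beyond that spread from its neighbours, Itgam (47.3 ± 9.33 RPKM) and Itgb5 (44.0 ± 8.08) in control mice and Itgam (49.4 ± 13.6) in stressed mice. Itgb2 stayed far above them, at 279 ± 43.1 and 287 ± 26.2 RPKM. The 10 subunits summed to 309.8 ± 38.6 RPKM in P9-CTR, 301 ± 34.3 in P9-ELS, 412 ± 28.9 in P200-CTR-PBS, 437 ± 20.8 in P200-ELS-PBS, 475 ± 88.1 in P200-CTR-LPS and 505 ± 68.5 in P200-ELS-LPS.

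**Figure D1:**
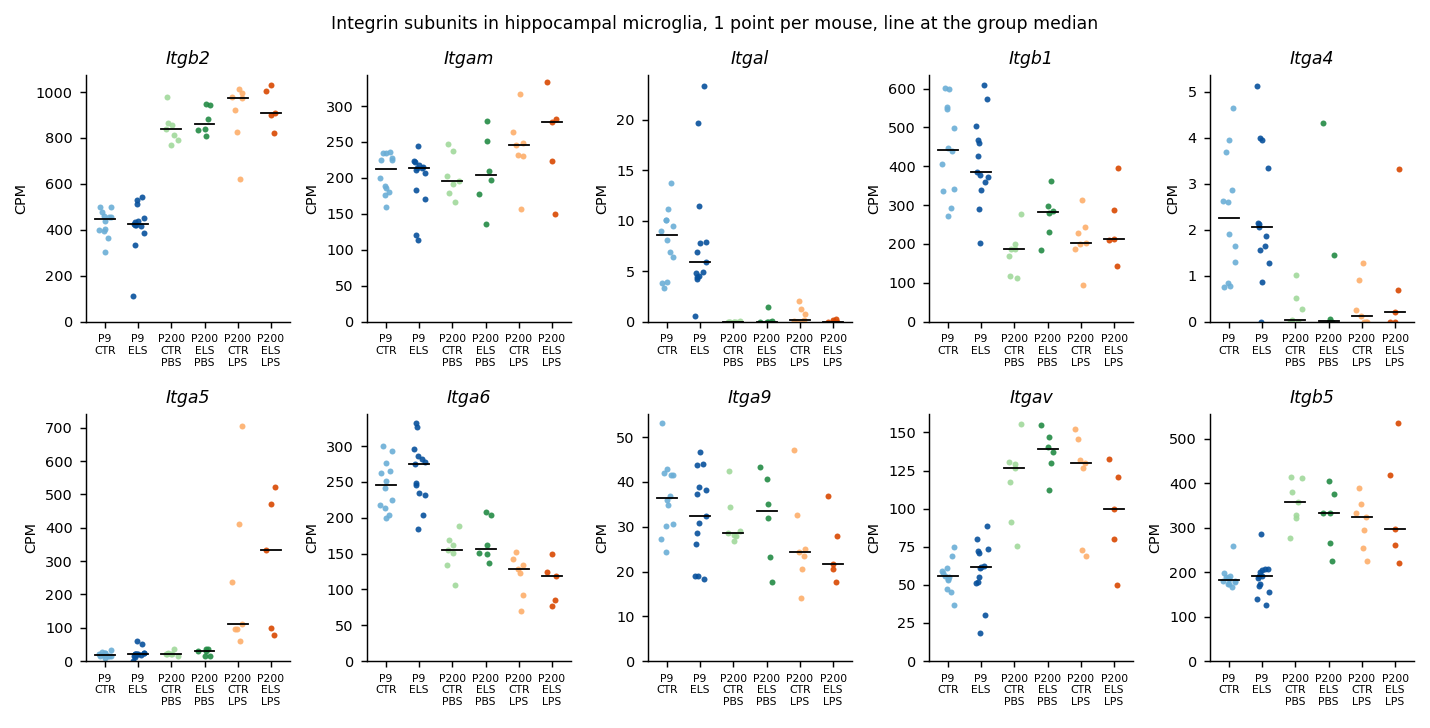
CPM of each of the 10 integrin subunits in each mouse (dots) in the 6 groups, with the group median (line). By their means, Itgb2, Itgav and Itgb5 lie higher and Itgal lower at P200 after PBS than at P9. Itga5 lies between 60.7 and 706 CPM after LPS in control mice against at most 36.7 CPM after PBS.

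The make-up of the receptor pool, taken as each subunit's percent of the summed RPKM of the 7 alpha or of the 3 beta subunits, gives a description with no test. Of the beta subunits, Itgb1 made up 31.6 ± 5.42% (mean ± SD) in P9-CTR and 8.79 ± 2.72% in P200-CTR-PBS, while Itgb2 made up 56.9 ± 4.74% and 76.4 ± 3.24%. In stressed mice Itgb1 made up 31.7 ± 11.16% at P9 and 12.6 ± 2.65% in adults given PBS. Of the alpha subunits, Itgam held 52.7 ± 1.57% in P9-CTR and 55.6 ± 3.10% in P200-CTR-PBS, Itga6 28.3 ± 1.78% and 18.8 ± 2.62%, and Itgav 5.97 ± 1.03% and 13.4 ± 2.43%. With LPS the share of Itga5 went from 6.44 ± 2.55% to 33.1 ± 18.6% in control mice and from 6.60 ± 2.06% to 39.7 ± 16.1% in stressed mice, the ranges not overlapping in either. The share of Itgam was 43.6 ± 9.71% in P200-CTR-LPS and 41.8 ± 9.1% in P200-ELS-LPS, although its own level did not fall by the test. Set against its partners, RPKM of Itgb2 over Itgam was 3.29 ± 0.267 in P9-CTR, 6.65 ± 0.752 in P200-CTR-PBS and 5.95 ± 0.538 in P200-CTR-LPS. RPKM of Itgb1 over the sum of Itga4, Itga5, Itga6 and Itga9, with Itgav left out, was 2.47 ± 0.634, 1.36 ± 0.384 and 0.762 ± 0.336 in the same groups. That of Itgav over Itgb5 was 0.170 ± 0.0284, 0.194 ± 0.0543 and 0.215 ± 0.0353. In P9-ELS, P200-ELS-PBS and P200-ELS-LPS the 3 ratios were 3.55 ± 1.42, 6.96 ± 1.71 and 6.14 ± 1.55, 2.17 ± 0.575, 1.93 ± 0.515 and 0.758 ± 0.430, and 0.188 ± 0.0588, 0.249 ± 0.0468 and 0.183 ± 0.0924. These ratios are of RNA, and the amount of protein was not measured.

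**Figure D2:**
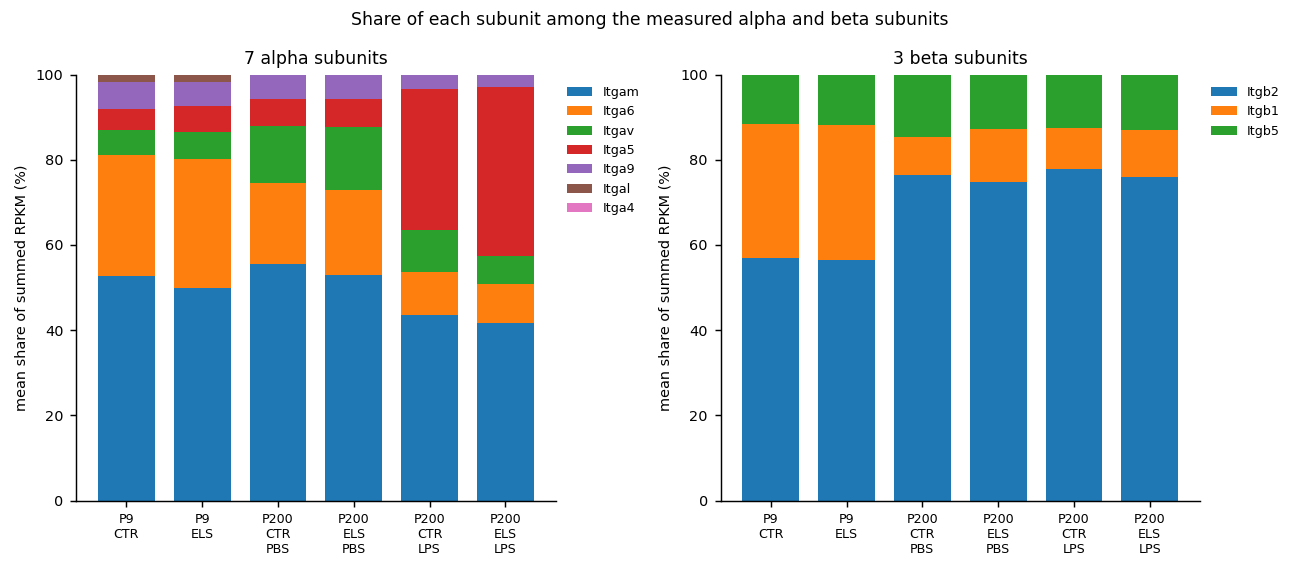
Mean percent of the summed RPKM of the 7 alpha subunits (left) and of the 3 beta subunits (right) in each group. Itgb1 is 31.6% of the beta subunits in P9-CTR and 8.79% in P200-CTR-PBS, and Itga5 is 33.1% of the alpha subunits in P200-CTR-LPS against 6.44% in P200-CTR-PBS.

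In control mice Itgb2, Itgav and Itgb5 were higher at P200 than at P9, and Itgb1, Itga6, Itga4 and Itgal were lower. Itgam, Itga5 and Itga9 passed no threshold in either direction. That makes 7 of 10 subunits changed in control mice, where 44.06% of all genes tested changed. By direction, 3 rose against 17.44% of all genes and 4 fell against 26.62%. With an absolute log2 fold change above 1 as well, 4 were called (Itga4, Itgal, Itgav and Itgb1) against 26.45% of all genes, and 5 had groups that did not overlap (Itga6, Itgal, Itgav, Itgb2 and Itgb5) against 17.09%.

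In stressed mice 6 of 10 changed with age, against 42.20% of all genes. The same 3 rose (all genes, 17.15%), and Itga6, Itgal and Itgb1 fell (all genes, 25.05%). With an absolute log2 fold change above 1 as well, Itgal, Itgav and Itgb2 made 3 (all genes, 26.16%), and the groups of Itgav and Itgb2 did not overlap, which is 2 subunits (all genes, 11.63%). The median log2 fold change of the 10 was -0.13 in control and 0.03 in stressed mice, beside -0.09 and -0.01 over all genes. All of this is bulk RNA, in which fewer cells of a type and less RNA per cell cannot be told apart, and uninjected pups are set against adults injected with PBS.

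Itgb2 (GRCm39 chromosome 10, 77366086 to 77401542, ENSMUSG00000000290), the shared chain of the leukocyte integrins, stood at 302, 447 and 499 CPM in P9-CTR (lowest, median and highest) and at 767, 837 and 980.3 CPM in P200-CTR-PBS. In stressed mice it stood at 112, 426 and 542 CPM at P9 and at 809.7, 861 and 947 CPM in P200-ELS-PBS. Every adult lay above every pup in both conditions. Itgb2 rose with age in control mice (log2 fold change 0.98, 95% interval 0.70 to 1.25, edgeR quasi-likelihood adjusted p = 7.77e-08) and in stressed mice (log2 fold change 1.07, 95% interval 0.79 to 1.35, adjusted p = 1.53e-08), with 7 of 7 and 6 of 6 adults above the median of the pups. Itgam (GRCm39 chromosome 7, 127661808 to 127717753, ENSMUSG00000030786), its phagocytic partner, stood at 159, 212 and 236 CPM in P9-CTR and 166, 196 and 247 CPM in P200-CTR-PBS. Its values in stressed mice were 113, 214 and 244 CPM at P9 and 136, 204 and 279 CPM in adults given PBS. The groups overlapped over most of their range, and the tests gave log2 fold change -0.02, 95% interval -0.31 to 0.26, edgeR quasi-likelihood adjusted p = 0.906 in control mice and log2 fold change 0.08, 95% interval -0.21 to 0.38, adjusted p = 0.677 in stressed mice.

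Itgal (GRCm39 chromosome 7, 126895432 to 126934320, ENSMUSG00000030830), the alpha chain of LFA-1, was counted in every pup and was close to absent from adult microglia. It stood at 3.33, 8.54 and 13.7 CPM in P9-CTR and 0.608, 5.87 and 23.3 CPM in P9-ELS. In P200-CTR-PBS 6 of 7 mice had 0 counts and mouse 15-1 had 1 count (0.0713 CPM), and in P200-ELS-PBS 4 of 6 mice had 0 counts, mouse 17-1 had 0.0804 CPM and mouse 11-1 had 1.5 CPM. The groups did not overlap in control mice, while in stressed mice P9-ELS mouse 19-2 (0.608 CPM) lay below P200-ELS-PBS mouse 11-1. Pooled over control mice there were 2064 counts at P9 and 1 at P200, a ratio of 1136 in depth-scaled counts, with a 95% counting interval of 204 to 44873 that covers counting error only. Itgal fell with age in control mice (log2 fold change -9.29, edgeR quasi-likelihood adjusted p = 7.55e-09) and in stressed mice (log2 fold change -5.02, 95% interval -6.84 to -3.19, adjusted p = 1.15e-05), where the fitted fold change in controls depends on the prior count. Without mouse 15-1 the value in controls was -10.43 and without mouse 11-1 that in stressed mice was -8.56, both on the log2 scale, and limma voom gave -7.92 and -6.95. Itgal passed the filter on low counts mainly through the pups, since 24 of the 27 mice with at least 1 CPM were at P9.

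Itgb1 (GRCm39 chromosome 8, 129411876 to 129460618, ENSMUSG00000025809), the common chain of the matrix receptors, stood at 273, 443 and 601 CPM in P9-CTR and 112, 186 and 276 CPM in P200-CTR-PBS. It stood at 202, 385 and 610.3 CPM in P9-ELS and 185, 282 and 363 CPM in P200-ELS-PBS. The groups overlapped at their edges in control mice, through P9-CTR mouse 58-2 (273 CPM) and P200-CTR-PBS mouse 15-1 (276 CPM), and more widely in stressed mice. Itgb1 fell in control mice (log2 fold change -1.32, 95% interval -1.74 to -0.90, edgeR quasi-likelihood adjusted p = 7.95e-07, lower than the median of the pups in 7 of 7 adults) and in stressed mice (log2 fold change -0.59, 95% interval -1.01 to -0.17, adjusted p = 0.0194, lower in 6 of 6). The fall in stressed mice did not pass the test without P200-ELS-PBS mouse 17-2 (log2 fold change -0.49, edgeR quasi-likelihood adjusted p = 0.078, over the mice left out 0.00772 to 0.078) or with counts summed per nest (-0.57, adjusted p = 0.109, over the other alternatives 0.00782 to 0.109). The test of the difference between the conditions gave log2 fold change 0.73, 95% interval 0.16 to 1.29, edgeR quasi-likelihood adjusted p = 0.362.

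Itga6 (GRCm39 chromosome 2, 71575960 to 71689757, ENSMUSG00000027111), the laminin-binding partner, was at 199.5, 246 and 301 CPM in P9-CTR and 106, 155 and 189 CPM in P200-CTR-PBS. It was at 184, 275 and 332 CPM in P9-ELS and 137, 157 and 208 CPM in P200-ELS-PBS. All adult controls lay below all control pups, and in stressed mice the groups overlapped through pups 19-3 and 9-2. Itga6 fell in control mice (log2 fold change -0.69, 95% interval -0.97 to -0.41, edgeR quasi-likelihood adjusted p = 4.91e-05) and in stressed mice (log2 fold change -0.65, 95% interval -0.93 to -0.36, adjusted p = 0.000234). Itga4 (GRCm39 chromosome 2, 79085660 to 79163467, ENSMUSG00000027009), the VCAM-1-binding partner, was low throughout, at 0.748, 2.26 and 4.66 CPM in P9-CTR and 0, 0.0389 and 1.01 CPM in P200-CTR-PBS. In stressed mice Itga4 was at 0, 2.06 and 5.12 CPM at P9 and 0, 0.0259 and 4.31 CPM in adults given PBS. The groups overlapped in both conditions, and P200-ELS-PBS mouse 17-2 (4.31 CPM) lay above all but 1 of the stressed pups. Itga4 fell in control mice (log2 fold change -3.08, 95% interval -5.18 to -0.98, edgeR quasi-likelihood adjusted p = 0.0143, lower in 7 of 7 adults) and did not pass in stressed mice (log2 fold change -1.26, 95% interval -3.23 to 0.71, adjusted p = 0.316).

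The fall of Itga4 in control mice was not called with counts summed per nest (log2 fold change -3.40, edgeR quasi-likelihood adjusted p = 0.0552, over the alternatives 0.00055 to 0.0552), and was -3.97 without P200-CTR-PBS mouse 18-1 and -4.14 in limma voom. In stressed mice Itga4 passed without P200-ELS-PBS mouse 17-2 (log2 fold change -2.90, edgeR quasi-likelihood adjusted p = 0.0383, over the mice left out 0.0383 to 0.465) and in limma voom (-4.1, limma adjusted p = 0.00108, over the alternatives 0.00108 to 0.379). Itga4 had at least 1 CPM in 25 mice, 20 of them at P9, so it too passed the filter mainly through the pups. Itga5, the fibronectin receptor, had 10.3, 17.27 and 34.2 CPM in P9-CTR and 16.1, 22.0 and 36.7 CPM in P200-CTR-PBS, and 0.355, 21.7 and 59.7 CPM in P9-ELS and 14.9, 28.9 and 37.3 CPM in P200-ELS-PBS. These overlapped, and the tests of Itga5 gave log2 fold change 0.23, edgeR quasi-likelihood adjusted p = 0.689 in control and log2 fold change 0.20, adjusted p = 0.74 in stressed mice. Itga9 (GRCm39 chromosome 9, 118435722 to 118730072, ENSMUSG00000039115), which binds tenascin and osteopontin, had 24.4, 36.5 and 53.26 CPM in P9-CTR and 26.8, 28.6 and 42.5 CPM in P200-CTR-PBS. Stressed mice had 18.32, 32.4 and 46.6 CPM of it at P9 and 17.7, 33.5 and 43.3 CPM in adults given PBS. Its groups overlapped, with log2 fold change -0.25, edgeR quasi-likelihood adjusted p = 0.337 in control and log2 fold change -0.03, adjusted p = 0.935 in stressed mice.

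Itgav (GRCm39 chromosome 2, 83554403 to 83637260, ENSMUSG00000027087) and Itgb5, the chains of the vitronectin receptor alphav-beta5, both rose with age. Itgav stood at 37.0, 55.5 and 74.5 CPM in P9-CTR and 75.6, 126 and 155 CPM in P200-CTR-PBS, and at 18.103, 61.5 and 88.8 CPM in P9-ELS and 112, 139 and 155 CPM in P200-ELS-PBS. Every adult lay above every pup in both conditions, with the gap smallest in control mice, where P9-CTR mouse 17-2 (74.5 CPM) stood next to P200-CTR-PBS mouse 1-1 (75.6 CPM), 1 of the 3 libraries with few genes. Itgav rose in control mice (log2 fold change 1.08, 95% interval 0.70 to 1.46, edgeR quasi-likelihood adjusted p = 5.87e-06) and in stressed mice (log2 fold change 1.19, 95% interval 0.81 to 1.58, adjusted p = 1.43e-06). Itgb5 (GRCm39 chromosome 16, 33649988 to 33771137, ENSMUSG00000022817) stood at 167, 183 and 258 CPM in P9-CTR and 277, 358 and 415 CPM in P200-CTR-PBS. It stood at 126, 191 and 286 CPM in P9-ELS and 226, 334 and 405 CPM in P200-ELS-PBS. The control groups did not overlap, and in stressed mice only pup 19-3 (286 CPM) reached into the adult range. Itgb5 rose in control mice (log2 fold change 0.92, 95% interval 0.65 to 1.19, edgeR quasi-likelihood adjusted p = 1.76e-07) and in stressed mice (log2 fold change 0.78, 95% interval 0.51 to 1.06, adjusted p = 7.24e-06). Differences between conditions in these age changes did not pass for Itgav (log2 fold change 0.11, edgeR quasi-likelihood adjusted p = 0.94) or Itgb5 (log2 fold change -0.13, adjusted p = 0.874).

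The promoters of Itgav and Itgb5 are shown because both chains rose together. RefSeq's table of promoters, on the build GRCm38.p6, gives 250 bases before to 50 after each start. It holds an entry for 7 of the 10 subunits, and those of Itgal, Itgb2 and Itga6 are not in it. Itgav's is chr2:83724147-83724446 on the plus strand and Itgb5's is chr16:33829415-33829714 on the plus strand, each written 5′ to 3′. Capitals mark the letters of motifs searched on both strands, each given with the percent of the 32851 promoters in the table that hold it. They are TGANTCA (AP-1, 7.81%), GAGGAAG (PU.1, 13.6%), CCGGAAG (ETS, 8.86%) and GGGCGG (SP, 35.7%). A motif of NF-kB (1.63% of promoters) and one of IRF (3.44%) were searched too and have no match in the windows shown here. Itgav holds 1 match to GAGGAAG and 1 to GGGCGG, and Itgb5 holds 3 to GGGCGG, which describes letters and not binding.
Itgav: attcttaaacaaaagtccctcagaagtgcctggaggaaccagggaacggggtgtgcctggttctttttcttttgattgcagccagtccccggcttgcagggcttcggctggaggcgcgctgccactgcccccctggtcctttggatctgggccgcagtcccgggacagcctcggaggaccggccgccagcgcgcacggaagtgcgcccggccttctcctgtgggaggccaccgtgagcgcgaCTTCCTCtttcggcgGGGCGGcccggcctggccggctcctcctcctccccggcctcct
Itgb5: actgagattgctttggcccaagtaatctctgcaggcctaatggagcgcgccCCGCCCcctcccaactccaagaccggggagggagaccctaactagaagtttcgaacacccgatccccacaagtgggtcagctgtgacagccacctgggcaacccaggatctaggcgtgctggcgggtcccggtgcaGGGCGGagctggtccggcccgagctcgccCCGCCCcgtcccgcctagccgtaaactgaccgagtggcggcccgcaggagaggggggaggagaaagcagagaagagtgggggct

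**Figure D3:**
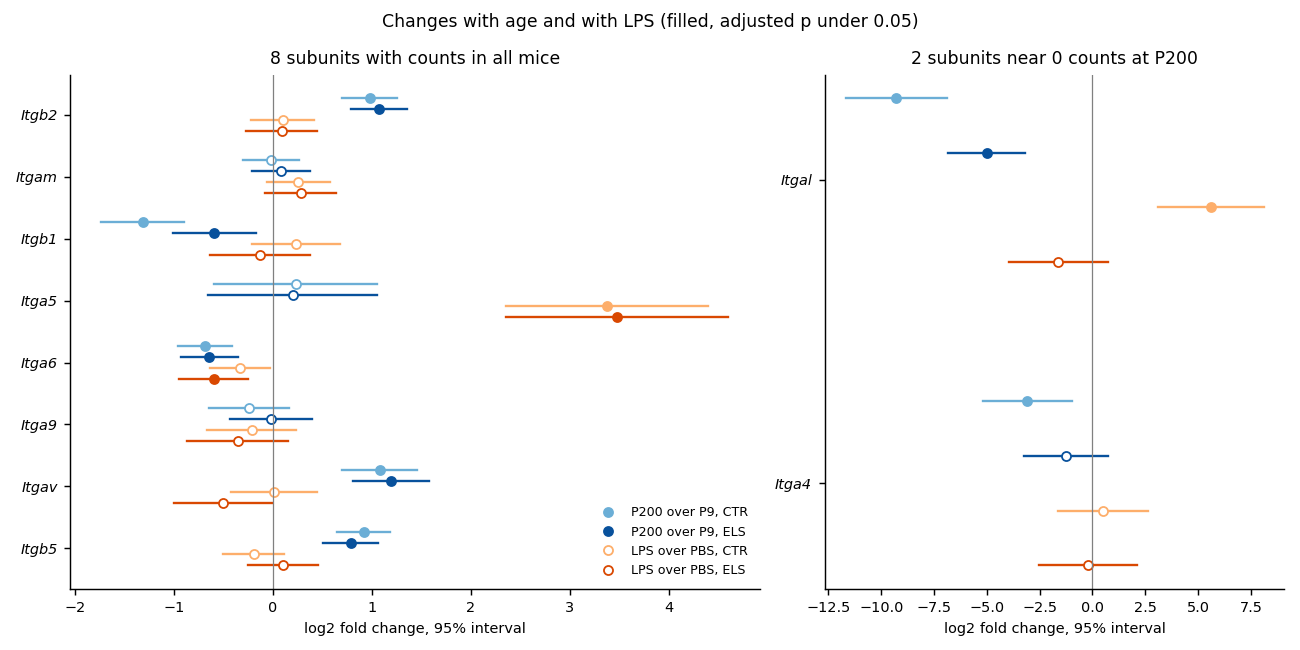
Log2 fold changes with 95% intervals for P200 over P9 and for LPS over PBS, in control (CTR) and stressed (ELS) mice, for 8 subunits with counts in all mice (left) and for 2 near 0 counts at P200 (right, a wider scale), filled where the adjusted p is under 0.05. Itga5 stands alone on the left at 3.38 and 3.48 with LPS, and the values of Itgal on the right depend on the prior count.

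Of the 16 other integrin subunits in the mouse annotation that were listed, 8 passed the filter, and Itga1, Itga2, Itga2b, Itga7, Itga10, Itga11, Itgb4 and Itgb6 did not. Itgae (CD103), the alpha chain that binds E-cadherin, stood at 0.798, 2.34 and 4.08 CPM in P9-CTR and 4.24, 6.82 and 19.13 CPM in P200-CTR-PBS, and at 0, 1.75 and 4.52 CPM in P9-ELS and 5.17, 5.76 and 9.29 CPM in P200-ELS-PBS. Adults lay above pups without overlap in both conditions. Itgae rose in control mice (log2 fold change 1.90, edgeR quasi-likelihood adjusted p = 0.000387) and in stressed mice (log2 fold change 1.52, adjusted p = 0.00475, in limma voom 2.2). Itgb3, the other well-known partner of Itgav, had 13.1, 34.3 and 51.9 CPM in P9-CTR and 40.6, 49.8 and 58.6 CPM in P200-CTR-PBS, and 11.8, 31.8 and 75.3 CPM in P9-ELS and 34.5, 68.8 and 84.5 CPM in P200-ELS-PBS. Its groups overlapped, and it rose by the test in stressed mice (log2 fold change 0.84, edgeR quasi-likelihood adjusted p = 0.00848) but did not pass in control mice (log2 fold change 0.58, adjusted p = 0.0631). That difference was not called itself (log2 fold change 0.26, edgeR quasi-likelihood adjusted p = 0.872). Itgb8, the TGF-beta-activating partner of Itgav, had 0.213, 1.51 and 3.59 CPM in P9-CTR and 0, 0.614 and 5.42 CPM in P9-ELS, and at most 1.09 and 0.0958 CPM in adults given PBS. It fell in stressed mice (log2 fold change -5.3, edgeR quasi-likelihood adjusted p = 0.000606, pooled counts 301 against 3, ratio 52, counting interval 17.6 to 254) and in control mice (log2 fold change -2.5, adjusted p = 0.0301). In stressed mice the value was -4.68 without P9-ELS mouse 19-2, -6.30 without P200-ELS-PBS mouse 17-2, -5.93 with counts summed per nest and -4.0 in limma voom.

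The call of Itgb8 in control mice was lost without any 1 of P200-CTR-PBS mice 1-1, 5-1, 5-2, 8-1 and 18-1 (edgeR quasi-likelihood adjusted p = 0.0536 to 0.0583) and with counts summed per nest (0.107, over the alternatives 6.25e-05 to 0.107). Its value was -3.13 without mouse 15-1, -3.43 without mouse 18-2 and -4.29 in limma voom. Itga3, a laminin-binding alpha chain, had 82 counts over the control pups, of which 6 of 12 had 0, and 0 in all 7 P200-CTR-PBS mice. Itga3 passed the filter through 3 of these pups alone, and was called (edgeR quasi-likelihood adjusted p = 0.00512, with no filter too) but not by DESeq2 (0.118, over the alternatives 0.0051 to 0.118). Its fitted log2 fold changes were -5.64, -4.99 in DESeq2 and -1.95 in limma voom. Since these adults held 0 counts, the fitted values do not measure the size of the fall. Pooled counts put P9 at 15.0 times P200 or more, a bound against 3 counts that covers counting error only. Itgb8 passed mainly through pups, and both its calls were kept with no filter. In stressed mice Itga3 had 16 counts at P9 and 0 at P200, a ratio of at least 2.77 by the same kind of bound. Itgax (CD11c), which shares Itgb2, had 2.96, 6.50 and 10.8 CPM in P9-CTR and 0, 4.64 and 11.7 CPM in P200-CTR-PBS, with overlap and log2 fold change -0.25, edgeR quasi-likelihood adjusted p = 0.704. Of the 8 tested, 1 rose and 2 fell in control mice and 2 rose and 1 fell in stressed mice (all genes called, 44.06% and 42.20%), with median log2 fold changes of -0.63 and -0.34.

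Of the activators and inhibitors at the integrin tails, with age 3 rose and 6 fell of 18 tested in control mice (median log2 fold change -0.17) and 4 rose and 6 fell of 18 tested in stressed mice (-0.11), where 44.06% and 42.20% of all genes were called. Dok1, an adaptor that competes with talin for beta tails, had 33.9, 49.3 and 61.1 CPM in P9-CTR and 63.7, 106 and 113 CPM in P200-CTR-PBS, with no overlap (log2 fold change 0.99, edgeR quasi-likelihood adjusted p = 0.000383). Dok1 in stressed mice gave log2 fold change 0.99, edgeR quasi-likelihood adjusted p = 0.000481. Krit1, which binds the beta1 tail inhibitor ICAP-1, rose in both (log2 fold change 0.77, edgeR quasi-likelihood adjusted p = 0.000183, and log2 fold change 0.61, adjusted p = 0.0032). Flna, filamin A, which holds beta tails inactive, had 73.6, 145 and 217 CPM in P9-CTR and 1.88, 20.6 and 32.8 CPM in P200-CTR-PBS, with no overlap (log2 fold change -2.83, edgeR quasi-likelihood adjusted p = 2.57e-08). Flna fell in stressed mice too (log2 fold change -2.46, edgeR quasi-likelihood adjusted p = 1.25e-06). Tln1, talin 1, the main activator of integrins, had 126, 213 and 261 CPM and 56.1, 91.8 and 129 CPM in the same groups, with overlap (log2 fold change -1.13, edgeR quasi-likelihood adjusted p = 0.000327). In stressed mice Tln1 gave log2 fold change -0.77, edgeR quasi-likelihood adjusted p = 0.0164, which was lost without P9-ELS mouse 9-2 (0.0531), without P200-ELS-PBS mouse 20-2 (0.0516) and with counts summed per nest (0.0635, over the alternatives 0.00379 to 0.0635). In control mice Apbb1ip, the adaptor RIAM, passed with log2 fold change 0.33, edgeR quasi-likelihood adjusted p = 0.0212, and was lost without P200-CTR-PBS mouse 18-2 (0.05) and with counts summed per nest (0.169, over the alternatives 0.000875 to 0.169).

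Tln2, talin 2, gave log2 fold change -0.49, edgeR quasi-likelihood adjusted p = 0.0496 in control mice, a call lost on leaving out any of 35 single mice (adjusted p up to 0.11) and in 5 other alternatives (up to 0.0959). In stressed mice Cyth1, a beta2-tail binding exchange factor, gave log2 fold change 1.19, edgeR quasi-likelihood adjusted p = 0.00877, lost without P200-ELS-PBS mouse 4-1 (0.0634) and with counts summed per nest (0.0776, over the alternatives 0.00449 to 0.0776), and Itgb1bp1, which encodes ICAP-1, fell (log2 fold change -0.65, adjusted p = 0.00629). In the complexes that form on bound integrins, 5 rose and 7 fell of 23 tested in control mice (median 0.07) and 7 rose and 6 fell of 23 tested in stressed mice (0.24), where 44.06% and 42.20% of all genes were called. Ptk2b, the kinase Pyk2, rose in both (log2 fold change 1.11, edgeR quasi-likelihood adjusted p = 0.00329, and log2 fold change 1.86, adjusted p = 3.82e-06). Lims1, the scaffold PINCH-1, had 176, 194 and 233 CPM in P9-CTR and 318, 336 and 406 CPM in P200-CTR-PBS, with no overlap (log2 fold change 0.82, edgeR quasi-likelihood adjusted p = 1.92e-05). Actn4, an alpha-actinin that links integrins to actin, fell in control mice (log2 fold change -1.49, edgeR quasi-likelihood adjusted p = 9.97e-05), as did Parvg, a parvin of blood cells (log2 fold change -0.85, adjusted p = 0.000883).

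In stressed mice Actn4 gave log2 fold change -0.86, edgeR quasi-likelihood adjusted p = 0.0235, lost without P9-ELS mouse 9-2 or without P200-ELS-PBS mouse 17-1, 17-2 or 20-2 (adjusted p 0.0529 to 0.069) and in 2 other alternatives (0.0865 and 0.107). Parvg gave log2 fold change -0.59, edgeR quasi-likelihood adjusted p = 0.0236 there, lost without P200-ELS-PBS mouse 17-1, 17-2 or 20-2 (0.0573 to 0.0728) and in 2 other alternatives (0.113 and 0.203). Syk, the kinase downstream of beta2 integrins, gave log2 fold change 0.57, edgeR quasi-likelihood adjusted p = 0.0213 in stressed mice, lost without P200-ELS-PBS mouse 11-1 (0.0527) and in the fit of only the groups compared (0.0902, over the alternatives 0.0109 to 0.0902). Zyx, zyxin, a marker of mature adhesions, gave log2 fold change -0.67, edgeR quasi-likelihood adjusted p = 0.0167 in control mice, lost with counts summed per nest (0.0578) and in limma voom (0.0636, over the alternatives 0.000169 to 0.0636).

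Ligands in the RNA of the sorted cells were mostly lower in adults: 3 rose and 14 fell of 23 tested in control mice (all genes, 17.44% and 26.62%) and 4 rose and 14 fell of 23 tested in stressed mice (all genes, 17.15% and 25.05%), with medians of -2.27 and -1.83. Spp1, osteopontin, a ligand of Itgav, Itga4 and Itga9 receptors, had 85.6, 231 and 319 CPM in P9-CTR and 0, 0.874 and 2.35 CPM in P200-CTR-PBS, with no overlap (log2 fold change -7.61, edgeR quasi-likelihood adjusted p = 1.73e-15, in limma voom -8.44). In stressed mice Spp1 fell as well (log2 fold change -6.91, edgeR quasi-likelihood adjusted p = 9.71e-14). Mfge8, the bridge from dying cells to alphav integrins, had 54.0, 79.7 and 99.6 CPM and 11, 34.8 and 42.6 CPM in the same control groups, with no overlap (log2 fold change -1.37, edgeR quasi-likelihood adjusted p = 1.67e-05). Mfge8 in stressed mice gave log2 fold change -0.88, edgeR quasi-likelihood adjusted p = 0.00541, but limma voom 0.109 (over the alternatives 4.77e-07 to 0.109). Lamb2, a laminin chain, had 7.25, 26.1 and 45.7 CPM and 0, 3.0 and 6.18 CPM in the control groups (log2 fold change -3.10, edgeR quasi-likelihood adjusted p = 4.89e-06, in limma voom -3.94). Its fall in stressed mice (log2 fold change -1.36, edgeR quasi-likelihood adjusted p = 0.0268) was lost without P9-ELS mouse 9-2 or without P200-ELS-PBS mouse 17-1, 17-2 or 20-2 (adjusted p 0.0652 to 0.0751) and with counts summed per nest (0.137, over the alternatives 0.00895 to 0.137).

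The junctional adhesion molecules, which bind leukocyte integrins, went the other way. Jam3, a ligand of Itgam with Itgb2, had 0.107, 2.19 and 4.25 CPM in P9-CTR and 21.3, 41.8 and 48.9 CPM in P200-CTR-PBS, with no overlap (log2 fold change 4.22, edgeR quasi-likelihood adjusted p = 1.9e-13). Jam3 in stressed mice gave log2 fold change 4.17, edgeR quasi-likelihood adjusted p = 1.99e-13, where limma voom gave 4.81. Jam2, a ligand of Itga4 with Itgb1, had 30.5, 43.4 and 51.31 CPM and 165, 197 and 271 CPM (log2 fold change 2.25, edgeR quasi-likelihood adjusted p = 1.22e-22). Jam2 in stressed mice gave log2 fold change 2.02, edgeR quasi-likelihood adjusted p = 1.9e-20. F11r (JAM-A), a ligand of Itgal with Itgb2, had 749, 992 and 1102 CPM and 2088, 2207 and 2497 CPM (log2 fold change 1.19, edgeR quasi-likelihood adjusted p = 8.92e-15). F11r in stressed mice gave log2 fold change 1.07, edgeR quasi-likelihood adjusted p = 7.15e-13. None of the 3 overlapped between ages in either condition.

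Markers of other cells moved with age beside these results. The 10 microglial markers (none at 0) summed to 39286, 55505 and 62352 CPM in P9-CTR (lowest, median and highest) and 83198, 88918 and 91083 CPM in P200-CTR-PBS. The 8 markers of border-associated macrophages summed to 551, 728 and 922 CPM in P9-CTR and 477, 734 and 909 CPM in P9-ELS, most of it Mrc1, and to 2.84, 8.2 and 10.6 CPM in P200-CTR-PBS and 4.23, 5.93 and 7.50 CPM in P200-ELS-PBS, where Clec10a was at 0. The 6 astrocyte markers (most abundant Aldoc) summed to 96.4, 173 and 245 CPM in P9-CTR and 0.0509, 6.10 and 16.3 CPM in P200-CTR-PBS, and in stressed mice to medians of 129.6 and 4.19 CPM. The 6 neuronal markers (most abundant Stmn2 at P9 and Snap25 at P200) summed to 36.9, 72.5 and 99.4 CPM and 2.54, 6.45 and 11.9 CPM in the control groups, and to medians of 49.2 and 6.24 CPM in stressed mice. The 7 cell cycle genes (most abundant Top2a at P9 and Pcna at P200) summed to 751, 1115 and 1225 CPM and 44.6, 56.4 and 68.7 CPM in control mice, and to medians of 966 and 50.4 CPM in stressed mice. No gene of the astrocyte, neuronal or cell cycle lists was at 0 in all mice of a group. These lists were higher at P9, like Itgal, Itga4, Itgb1 and Itga6, and their part in the results was not tested.

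The 10 neutrophil genes summed to 9.08, 14.1 and 28.2 CPM in P9-CTR and at most 0.272 CPM in P200-CTR-PBS, nearly all of it Cxcr2 at P9, with the defining Ly6g, Retnlg and Ltf at 0 in both. In P9-ELS the same genes had a median of 16.1 CPM and in P200-ELS-PBS at most 1.29 CPM. The 7 monocyte genes had medians of 8.65, 9.75, 9.33 and 9.54 CPM in P9-CTR, P9-ELS and the control and stressed adults given PBS, led by Plac8 at P9 and Ccr2 at P200. Ly6c2 and Chil3 of that list were at 0 in the first 3 of these groups and Chil3 in the last. The 8 genes of T, NK and B cells reached at most 0.334, 0.506, 0.675 and 0.442 CPM in the same groups. The 7 endothelial genes (most abundant Pecam1) had medians of 36.4, 39.3, 52.6 and 65.8 CPM, the 6 platelet genes (Gp9) 14.7, 15.5, 25.9 and 24.2 CPM, and the 7 genes of the oligodendrocyte lineage (Mbp at P9, Mag at P200) 37.1, 31.0, 48.2 and 51.7 CPM. Ly6c1, Gp1bb, Gp5 and Gp6 were at 0 in both adult groups given PBS, Olig2 in P200-CTR-PBS, and Cldn5, Tek and Ppbp in P200-ELS-PBS.

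The fibronectin receptor chain Itga5 rose within 3 hours of LPS in control and in stressed mice. Itgal also rose in control mice, from almost nothing to a trace, and Itga6 fell in stressed mice. In control mice that makes 2 of 10 subunits changed, where 14.93% of all genes changed, with 2 higher (all genes, 8.733%) and 0 lower (all genes, 6.199%). Both also had an absolute log2 fold change above 1 (all genes, 9.619%), and 1, Itga5, had groups that did not overlap (all genes, 7.487%). In stressed mice 2 of 10 changed (all genes, 12.33%), Itga5 higher (all genes, 7.397%) and Itga6 lower (all genes, 4.935%). There Itga5 alone had an absolute log2 fold change above 1 as well (all genes, 7.864%) and groups that did not overlap (all genes, 10.01%). Without the 3 mice with few genes, 3536 genes in place of 2059 were called in stressed mice. The comparisons with age and with LPS share the mice given PBS. Median log2 fold changes of the 10 were 0.17 and -0.17 in control and stressed mice, beside 0 and -0.04 over all genes.

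Itga5 (GRCm39 chromosome 15, 103252713 to 103275270, ENSMUSG00000000555) had 16.1, 22.0 and 36.7 CPM in P200-CTR-PBS and 60.7, 112 and 706 CPM in P200-CTR-LPS. It had 14.9, 28.9 and 37.3 CPM in P200-ELS-PBS, and after LPS 470.2, 98.7, 77.8, 333 and 523 CPM in mice 2-2, 4-2, 11-2, 17-3 and 20-1 of P200-ELS-LPS. Every mouse given LPS lay above every mouse given PBS. Within each LPS group the values spread widely. Control mice 1-3, 8-3 and 8-2 stood at 236, 410 and 706 CPM, against 112 CPM and less in the other 4. Among stressed mice, 17-3, 2-2 and 20-1 stood at 333 CPM and more against 98.7 CPM and less in the other 2. Itga5 rose in control mice (log2 fold change 3.38, 95% interval 2.36 to 4.4, edgeR quasi-likelihood adjusted p = 9.53e-07) and in stressed mice (log2 fold change 3.48, 95% interval 2.36 to 4.60, adjusted p = 5.41e-06). The difference between the conditions did not pass (log2 fold change 0.10, 95% interval -1.3 to 1.51, edgeR quasi-likelihood adjusted p = 1). With the nest number as a block the value in control mice was 2.54 (edgeR quasi-likelihood adjusted p = 0.000724, over the alternatives 1.96e-10 to 0.000724). With Itga5 and Itgb1 the cell makes the fibronectin receptor alpha5-beta1, and Itgb1 was not called. Itgb1 had 112, 186 and 276 CPM in P200-CTR-PBS and 95.6, 201 and 313 CPM in P200-CTR-LPS, with overlap and log2 fold change 0.23, edgeR quasi-likelihood adjusted p = 0.566, and gave log2 fold change -0.13, adjusted p = 0.811 in stressed mice.

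The promoters of Itga5, which rose with LPS in both conditions, and of Itgb7, described below, come from the same RefSeq table (GRCm38.p6), at chr15:103366742-103367041 on the minus strand and chr15:102231886-102232185 on the minus strand. In GRCm39 Itgb7 lies at 102124429 to 102140379 (ENSMUSG00000001281). Capitals mark the same motifs, searched on both strands. Itga5 holds 2 matches to GGGCGG and Itgb7 holds 1 to GAGGAAG, and the motifs of NF-kB, AP-1, ETS and IRF have no match in either window.
Itga5: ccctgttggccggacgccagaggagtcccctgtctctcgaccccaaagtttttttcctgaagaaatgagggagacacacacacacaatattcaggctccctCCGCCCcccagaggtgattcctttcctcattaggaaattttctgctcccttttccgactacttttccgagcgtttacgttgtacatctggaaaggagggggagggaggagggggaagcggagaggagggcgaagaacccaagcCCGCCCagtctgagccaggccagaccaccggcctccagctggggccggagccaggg
Itgb7: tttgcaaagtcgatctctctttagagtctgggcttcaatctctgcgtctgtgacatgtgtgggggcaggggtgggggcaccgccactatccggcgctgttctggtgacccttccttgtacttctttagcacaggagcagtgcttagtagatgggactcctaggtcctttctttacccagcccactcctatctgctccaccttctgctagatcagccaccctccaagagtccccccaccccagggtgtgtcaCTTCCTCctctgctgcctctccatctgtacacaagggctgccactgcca

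**Figure D4:**
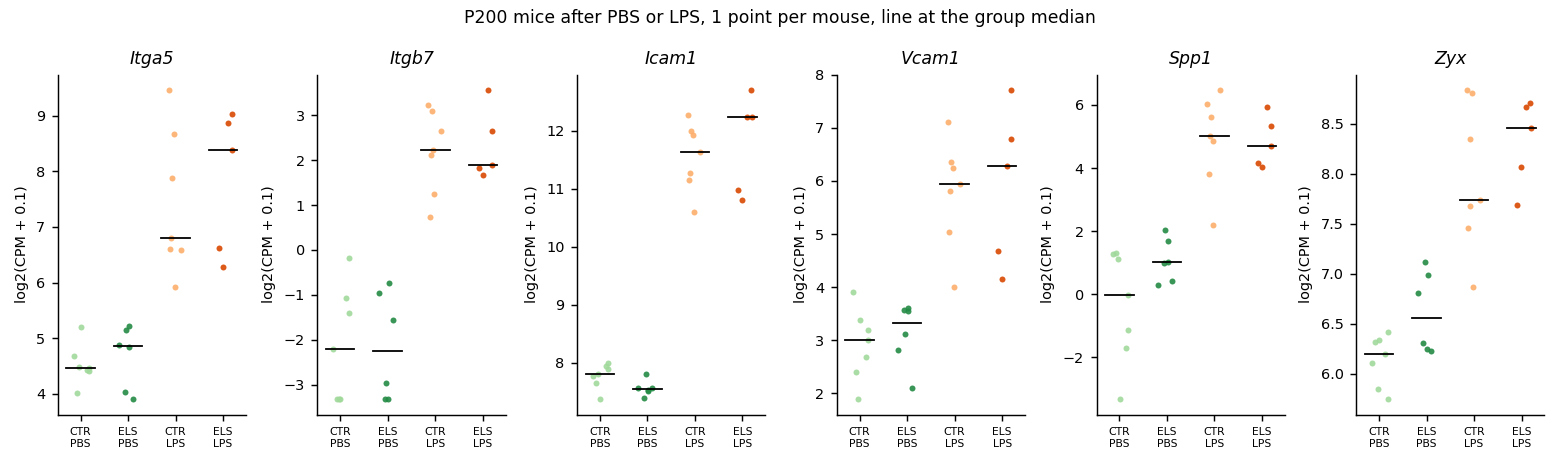
Log2(CPM + 0.1) of Itga5, Itgb7, Icam1, Vcam1, Spp1 and Zyx in each P200 mouse (dots) by condition and injection, with the group median (line). In each panel the mice given LPS lie above those given PBS of the same condition, by log2 fold changes of 1.71 (Zyx in stressed mice) to 5.13 (Spp1 in control mice).

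Itgal was near 0 in adults and remained low after LPS. The 7 P200-CTR-LPS mice had 0, 0, 0.0786, 0.219, 0.788, 1.22 and 2.07 CPM, against 0 in 6 and 0.0713 CPM in 1 of P200-CTR-PBS. Pooled, 76 counts stood against 1, a ratio of 80.5 with a 95% counting interval of 14.0 to 3219.9, and 2 of 7 treated mice had 0 counts like most given PBS. Itgal rose by the test (log2 fold change 5.6, edgeR quasi-likelihood adjusted p = 0.000756, higher than the median given PBS in 5 of 7), and its fitted fold change depends on the prior count. It was not called in limma voom (2.90, limma adjusted p = 0.0747), nor with the nest number as a block (4.08, edgeR quasi-likelihood adjusted p = 0.197), over alternatives of 5.66e-06 to 0.197, and it failed the filter in a fit of only the groups compared. Without P200-CTR-LPS mouse 1-2 the log2 fold change was 4.93, and without P200-CTR-PBS mouse 15-1 it was 6.74. In stressed mice Itgal had 0.148, 0, 0.247, 0 and 0 CPM in mice 2-2, 4-2, 11-2, 17-3 and 20-1 of P200-ELS-LPS, against 1.5 CPM in P200-ELS-PBS mouse 11-1 and at most 0.0804 CPM in the other 5 (log2 fold change -1.61, edgeR quasi-likelihood adjusted p = 0.428).

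Itgb2 and Itgam, the chains of complement receptor 3, moved little with LPS. Itgb2 had 619.7, 976 and 1011 CPM in P200-CTR-LPS and 1030.2, 899, 820.0, 1002 and 907 CPM in mice 2-2, 4-2, 11-2, 17-3 and 20-1 of P200-ELS-LPS, overlapping the mice given PBS (log2 fold change 0.10, edgeR quasi-likelihood adjusted p = 0.772 in control and log2 fold change 0.09, adjusted p = 0.815 in stressed mice). Itgam had 157, 246 and 317 CPM in P200-CTR-LPS and 277, 224, 149, 333 and 282 CPM in mice 2-2, 4-2, 11-2, 17-3 and 20-1 of P200-ELS-LPS, with overlap (log2 fold change 0.26, edgeR quasi-likelihood adjusted p = 0.317 in control and log2 fold change 0.28, adjusted p = 0.355 in stressed mice). Of the beta1 partners, Itga6 had 70.0, 128 and 153 CPM in P200-CTR-LPS and 76.1, 149.6, 84.8, 125 and 119 CPM in mice 2-2, 4-2, 11-2, 17-3 and 20-1 of P200-ELS-LPS. It overlapped with PBS in control mice, and in stressed mice P200-ELS-LPS mouse 4-2 (149.6 CPM) reached into the PBS range. Itga6 fell in stressed mice (log2 fold change -0.60, 95% interval -0.95 to -0.26, edgeR quasi-likelihood adjusted p = 0.0129, lower in 5 of 5) and did not pass in control mice (log2 fold change -0.34, 95% interval -0.64 to -0.04, adjusted p = 0.131). The difference between these 2 changes did not pass either (log2 fold change -0.26, edgeR quasi-likelihood adjusted p = 0.964). The fall in stressed mice was lost without P200-ELS-LPS mouse 2-2 (-0.49, edgeR quasi-likelihood adjusted p = 0.0687), without mouse 11-2 (-0.52, 0.0519, over the mice left out 0.0034 to 0.0687) and with the nest number as a block (-0.58, 0.0581, over the other alternatives 0.0042 to 0.0581). In control mice Itga6 passed without the 3 mice with few genes (-0.41, edgeR quasi-likelihood adjusted p = 0.0374, over the alternatives 0.0374 to 0.326).

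Itga9 had 14.0, 24.2 and 47.2 CPM in P200-CTR-LPS and 21.8, 20.5, 17.6, 36.8 and 27.9 CPM in mice 2-2, 4-2, 11-2, 17-3 and 20-1 of P200-ELS-LPS (log2 fold change -0.22, edgeR quasi-likelihood adjusted p = 0.61 and log2 fold change -0.36, adjusted p = 0.415 in control and stressed mice). Itga4 had 0, 0.133 and 1.27 CPM in P200-CTR-LPS and 0.221, 0, 0.680, 0 and 3.32 CPM in mice 2-2, 4-2, 11-2, 17-3 and 20-1 of P200-ELS-LPS (log2 fold change 0.49, edgeR quasi-likelihood adjusted p = 0.84 and log2 fold change -0.20, adjusted p = 0.949). Neither was apart from the mice given PBS. Itgav had 69.0, 130.2 and 152 CPM in P200-CTR-LPS, where mice 8-2 and 8-3, both with high Itga5, were the lowest, and 80.3, 99.8, 49.6, 132 and 121 CPM in mice 2-2, 4-2, 11-2, 17-3 and 20-1 of P200-ELS-LPS. Its tests gave log2 fold change 0.01 in control mice (edgeR quasi-likelihood adjusted p = 0.999) and log2 fold change -0.50, 95% interval -1.0 to -0.01, adjusted p = 0.196 in stressed mice, with overlap in both. Itgb5 had 225, 323 and 389.9 CPM in P200-CTR-LPS and 260.4, 298, 536, 418 and 220.0 CPM in mice 2-2, 4-2, 11-2, 17-3 and 20-1 of P200-ELS-LPS (log2 fold change -0.20, edgeR quasi-likelihood adjusted p = 0.465 and log2 fold change 0.10, adjusted p = 0.782).

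Of the other 8 subunits tested, Itgb7, the beta chain that pairs with Itga4 and Itgae in lymphocytes, rose with LPS in both conditions. It had 0, 0.117 and 0.780 CPM in P200-CTR-PBS and 1.57, 4.58 and 9.23 CPM in P200-CTR-LPS. It had 0, 0.135 and 0.498 CPM in P200-ELS-PBS, and after LPS 11.7, 3.45, 3.09, 6.15 and 3.61 CPM in mice 2-2, 4-2, 11-2, 17-3 and 20-1 of P200-ELS-LPS. The groups did not overlap in either condition, and at P9 it was at most 1.05 CPM. The tests gave log2 fold change 4.55, 95% interval 2.19 to 6.90, edgeR quasi-likelihood adjusted p = 0.00432 in control and log2 fold change 4.78, 95% interval 2.19 to 7.38, adjusted p = 0.00801 in stressed mice, and limma voom gave 5.29 and 5.48, with 5.2 in control mice without P200-CTR-PBS mouse 8-1. Itgb7 passed the filter through the mice given LPS, and both its calls were kept with no filter. Itgb8 had 46 counts in P200-CTR-PBS, 32 in mouse 18-2, 14 in mouse 15-1 and 0 in the other 5, and 1 count in P200-CTR-LPS (ratio 43.4, counting interval 7.42 to 1753, log2 fold change -4.47, edgeR quasi-likelihood adjusted p = 0.0144). That call was lost without P200-CTR-PBS mouse 18-2 (0.0692), with the nest number as a block (log2 fold change -2.91, 0.475) and in limma voom (-1.16, 0.541, over the alternatives 0.00409 to 0.541). The log2 fold change was -3.85 without P200-CTR-PBS mouse 15-1 and -5.71 without P200-CTR-LPS mouse 18-3. Itgb3 had 43.2, 67.7 and 161 CPM in P200-CTR-LPS, where mice 8-2 and 8-3 stood far above the rest, and did not pass (log2 fold change 0.75, edgeR quasi-likelihood adjusted p = 0.0811). Medians over the 8 were -0.03 in control mice and 0.14 in stressed mice, the latter 0.06 with near-0 genes at their bounds.

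With LPS, of the ligands, 7 rose and 1 fell of 23 tested in control mice (median log2 fold change 0.91; all genes, 8.733% and 6.199%) and 5 rose and 0 fell of 23 tested in stressed mice (median 0.27; all genes, 7.397% and 4.935%). Icam1, the ligand of LFA-1 and complement receptor 3, had 166, 224 and 256 CPM in P200-CTR-PBS and 1556, 3172 and 4919.9 CPM in P200-CTR-LPS (log2 fold change 3.85, edgeR quasi-likelihood adjusted p = 2.41e-16). Icam1 in stressed mice gave log2 fold change 4.41, edgeR quasi-likelihood adjusted p = 1.79e-16. Vcam1, the ligand of Itga4 receptors, had 3.62, 7.94 and 14.9 CPM and 16.0, 61.2 and 138 CPM (log2 fold change 3.01, edgeR quasi-likelihood adjusted p = 8.34e-09). In stressed mice Vcam1 gave log2 fold change 3.26, edgeR quasi-likelihood adjusted p = 2.07e-08, and 2.65 without P200-ELS-LPS mouse 20-1. Spp1 had 0, 0.874 and 2.35 CPM and 4.51, 32.5 and 88.9 CPM (log2 fold change 5.13, edgeR quasi-likelihood adjusted p = 1.48e-10). Stressed mice showed the rise of Spp1 too (log2 fold change 3.84, edgeR quasi-likelihood adjusted p = 4.88e-07). None of the 3 overlapped between PBS and LPS in either condition.

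In P200-ELS-LPS mice 2-2, 4-2, 11-2, 17-3 and 20-1, in that order, Icam1 had 4828, 2023, 1779, 4825 and 6651 CPM. Vcam1 had 77.6, 25.7, 17.8, 110.0 and 209 CPM and Spp1 had 61.2, 17.7, 16.3, 40.3 and 25.8 CPM in the same order. As for Itga5, Icam1 was lowest in mice 4-2 and 11-2. Jam2 passed in control mice (log2 fold change -0.38, edgeR quasi-likelihood adjusted p = 0.0336), but lost its call on leaving out any 1 of 7 mice (adjusted p 0.0507 to 0.119). The call was also lost with no filter and without the 3 mice with few genes (edgeR quasi-likelihood adjusted p 0.0708 to 0.0896 over these 2). In the adhesion complex, 5 rose and 1 fell of 23 tested in control mice (median 0.18) and 4 rose and 0 fell of 23 tested in stressed mice (0.04, or 0.01 with near-0 genes at their bounds), where 14.93% and 12.33% of all genes were called. Zyx had 53.5, 73.3 and 85.4 CPM in P200-CTR-PBS and 117, 214 and 458 CPM in P200-CTR-LPS, with no overlap (log2 fold change 1.96, edgeR quasi-likelihood adjusted p = 8.73e-08). Zyx in stressed mice gave log2 fold change 1.71, edgeR quasi-likelihood adjusted p = 1.71e-05. Lims1 fell in control mice (log2 fold change -0.72, edgeR quasi-likelihood adjusted p = 0.0024). Crk, an adaptor of adhesion signalling, passed in control mice (log2 fold change 0.93, edgeR quasi-likelihood adjusted p = 0.0214), but not without P200-CTR-PBS mouse 1-1 (0.0561), without P200-CTR-LPS mouse 15-2 (0.0526) or with counts summed per nest (0.0554, over the alternatives 0.00486 to 0.0554).

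At the tails, 2 rose and 3 fell of 18 tested in control mice (median 0.27) and 1 rose and 1 fell of 18 tested in stressed mice (0.01), where 14.93% and 12.33% of all genes were called. Fyb, the adaptor ADAP that carries talin and RIAM to the membrane, had 199, 241 and 294 CPM in P200-CTR-PBS and 332, 428 and 545 CPM in P200-CTR-LPS, with no overlap (log2 fold change 0.81, edgeR quasi-likelihood adjusted p = 1.85e-05). Fyb in stressed mice gave log2 fold change 0.99, edgeR quasi-likelihood adjusted p = 4.87e-06. Dok1, higher in adults than in pups, fell with LPS in control mice (log2 fold change -0.95, edgeR quasi-likelihood adjusted p = 0.00809), as did Tln2 (log2 fold change -0.91, adjusted p = 0.00402). Tln2 in stressed mice gave log2 fold change -0.86, edgeR quasi-likelihood adjusted p = 0.0229, lost without P200-ELS-PBS mouse 2-1 or 4-1 or P200-ELS-LPS mouse 4-2, 11-2 or 20-1 (adjusted p 0.0504 to 0.0808) and in 2 other alternatives (0.0501 and 0.0599). Apbb1ip gave log2 fold change -0.40, edgeR quasi-likelihood adjusted p = 0.0374 in control mice, lost on leaving out any 1 of 9 mice (adjusted p 0.0511 to 0.0911) and in 4 other alternatives (0.0541 to 0.118).

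Because Itgal, Itgb7 and Itga5 are also made by blood leukocytes, the markers of these cells are given for the mice given LPS, although the sort kept only cells with CD11b and intermediate CD45. The 10 neutrophil genes summed to 0, 0.143 and 1.84 CPM in P200-CTR-LPS (lowest, median and highest, most abundant S100a8), with Ly6g, Retnlg and Ltf at 0. In P200-ELS-LPS mice 2-2, 4-2, 11-2, 17-3 and 20-1 they summed to 0.0738, 0.761, 1.24, 9.99 and 0.217 CPM, with Ly6g, Retnlg, Mpo and Elane at 0. The 7 monocyte genes summed to 3.43, 6.27 and 9.90 CPM in P200-CTR-LPS, led by Ccr2 and with Ly6c2 at 0, and to 12.2, 4.51, 5.13, 11.201 and 20.4 CPM in the 5 stressed mice, led by Ms4a4c. The 8 genes of T, NK and B cells reached at most 0.487 and 0.812 CPM in these groups. The medians of the other lists in P200-CTR-LPS and P200-ELS-LPS were 76211 and 79055 CPM (microglia), 5.36 and 4.91 (border-associated macrophages), 76.7 and 64.2 (endothelium) and 30.6 and 35.8 (platelets). Those of the glial, neuronal and cycling lists were 8.67 and 7.91 CPM (astrocytes), 9.27 and 7.17 (neurons), 50.5 and 56.7 (oligodendrocyte lineage) and 50.8 and 57.6 (cell cycle). The monocyte sums split the stressed mice as Itga5 did, while control mice 1-3, 8-2 and 8-3, high in Itga5, had 6.62, 3.43 and 5.11 CPM of a range of 3.43 to 9.90. The microglial list was lower after LPS in control mice without overlap (69340 to 82959 CPM, against 83198 to 91083 after PBS). In stressed mice its groups overlapped (73732 to 85177 CPM, against 82985 to 89361). Endothelial medians went from 52.6 after PBS to 76.7 CPM after LPS in control mice and from 65.8 to 64.2 CPM in stressed mice. The part of the monocyte, microglial and endothelial lists in the rises of Itga5, Itgal, Itgb7, Icam1 and Vcam1 was not tested.

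Early-life stress changed none of the 10 subunits by edgeR's quasi-likelihood test at either age, with or without LPS. At P9, 0 of 10 were called (all genes, 0%), 0 had an unadjusted p under 0.05 (914 of all genes), and 0 were called by the likelihood-ratio test, DESeq2 or limma voom, which called 1, 0 and 0 genes in all. The largest absolute log2 fold change at P9 was that of Itga5 at 0.22 (-0.48 to 0.93) (95% interval in brackets), and Itgb2, Itgam, Itgb5 and Itga6 had -0.04 (-0.28 to 0.20), -0.07 (-0.31 to 0.17), -0.01 (-0.24 to 0.22) and 0.10 (-0.13 to 0.33). For Itga4 the interval was -1.48 to 1.51 and for Itgal it was -1.03 to 1.1. After PBS at P200, 0 of 10 were called (all genes, 0.1677%) by edgeR's quasi-likelihood test, 2 had an unadjusted p under 0.05 (1622 of all genes), and the likelihood-ratio test, DESeq2 and limma voom called 1, 1 and 0 subunits and 215, 178 and 0 genes. After LPS at P200, 0 of 10 were called (all genes, 0%), 1 had an unadjusted p under 0.05 (798 of all genes), and the other tests called 0 subunits and 10, 2 and 0 genes. The count of 28 genes called after PBS ranged from 1 to 83 as single mice were left out.

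The subunits with an unadjusted p under 0.05 after PBS were Itgb1 and Itgal. Itgb1 had 112, 186 and 276 CPM in P200-CTR-PBS and 185, 282 and 363 CPM in P200-ELS-PBS, with overlap (log2 fold change 0.62, 95% interval 0.16 to 1.08, edgeR quasi-likelihood adjusted p = 0.273). Itgal had 31 counts in P200-ELS-PBS, 29 of them in mouse 11-1, and 1 in P200-CTR-PBS, a ratio of 31.6 with a counting interval of 5.26 to 1287. It did not pass edgeR's quasi-likelihood test (adjusted p = 0.148) but did by the likelihood-ratio test (0.0197) and DESeq2 (0.0191, over the alternatives 0.0191 to 0.884). After LPS the subunit with an unadjusted p under 0.05 was again Itgal, lower in stressed mice (log2 fold change -2.90, 95% interval -5.13 to -0.67, edgeR quasi-likelihood adjusted p = 0.862). Itga5 after LPS gave log2 fold change 0.29, 95% interval -0.72 to 1.3, edgeR quasi-likelihood adjusted p = 1 between stressed and control mice.

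The interactions ask whether the change with age or with LPS differed between stressed and control mice. For age, 0 of 10 were called (all genes, 0.02995%), 2 had an unadjusted p under 0.05 (1712 of all genes), and the likelihood-ratio test, DESeq2 and limma voom called 0 subunits and 29, 20 and 0 genes. The 2 were Itgb1, as given above, and Itgal (log2 fold change 4.28, 95% interval 1.38 to 7.17, edgeR quasi-likelihood adjusted p = 0.296). For LPS, 0 of 10 were called (all genes, 0%), 1 had an unadjusted p under 0.05 (980 of all genes), and the other tests called 1, 1 and 0 subunits and 66, 15 and 0 genes. That subunit was Itgal, with a log2 difference of -7.21 (edgeR quasi-likelihood adjusted p = 0.209), which passed by the likelihood-ratio test (0.00664) and DESeq2 (0.00405, over the alternatives 0.00405 to 0.924), on counts of 1, 31, 76 and 6 in control and stressed mice given PBS and control and stressed mice given LPS. In these comparisons of stress and interactions, edgeR's quasi-likelihood test called 0 genes of the lists of other subunits, tail proteins, adhesion complex and ligands, of 8, 18, 23 and 23 tested. Those with an unadjusted p under 0.05, in the order of these lists, were 1, 1, 1 and 0 at P9, 2, 3, 4 and 2 after PBS, 0, 1, 1 and 2 after LPS, 1, 4, 3 and 2 for age and 1, 2, 2 and 1 for LPS. Limma voom called 0, the likelihood-ratio test called 1 tail gene after PBS and in each interaction, and DESeq2 called 1 after PBS and 1 in the interaction with age.

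For each subunit, the 3 genes with the most similar pattern are given by Pearson's r of log2 CPM over the 50 mice, with Spearman's rho, as a description without p, since the mice share groups that differ in age and injection. Itgb2 ran closest to Tcn2 (r = 0.967, rho = 0.931), Neurl3 (r = 0.953, rho = 0.826) and Il21r (r = 0.953, rho = 0.848), of which Tcn2 is a transcobalamin and Il21r a cytokine receptor. Itgam, which differed least between groups, had lower values, with Prkx (r = 0.743, rho = 0.645), Tor1aip2 (r = 0.730, rho = 0.635) and Jak1 (r = 0.721, rho = 0.731). Itgal ran with Fxyd6 (r = 0.944, rho = 0.811), Anapc5 (r = 0.931, rho = 0.874) and Apoe (r = 0.920, rho = 0.845), Apoe being a lipid carrier of glia. Itgb1 ran with Mettl9 (r = 0.888, rho = 0.913), Rap2b (r = 0.875, rho = 0.880) and Txndc5 (r = 0.849, rho = 0.843). Of its partners, Itga4 ran with Sox9 (r = 0.788, rho = 0.753), Npas3 (r = 0.772, rho = 0.786) and Nostrin (r = 0.766, rho = 0.709), and Sox9 is a transcription factor of astrocytes. Itga5 ran with Gm44876 (r = 0.957, rho = 0.828), Cdc42se1 (r = 0.954, rho = 0.813) and Plekho2 (r = 0.952, rho = 0.834). Itga6 ran with Wwp1 (r = 0.885, rho = 0.913), Tmem144 (r = 0.879, rho = 0.878) and Rgs7bp (r = 0.877, rho = 0.897). Itga9 had the lowest values of the 10, with Cecr2 (r = 0.617, rho = 0.638), 1700030J22Rik (r = 0.551, rho = 0.534) and Tcf20 (r = 0.537, rho = 0.473). Itgav ran with 6430511E19Rik (r = 0.911, rho = 0.865), Tjp1 (r = 0.897, rho = 0.867) and Tgfbr1 (r = 0.882, rho = 0.883), of which Tgfbr1 is a receptor of TGF-beta, a cytokine that alphav integrins release from its latent form. Itgb5 ran with Cd81 (r = 0.894, rho = 0.862), Saraf (r = 0.887, rho = 0.880) and H2-DMb1 (r = 0.882, rho = 0.846).

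The strand setting of the counting is not stated, so genes that overlap a subunit are named. Itgam shares 3450 bases with Gm49368 on the same strand (mean 0.0923 CPM over all mice), and Itga4 shares 3481 bases with Cerkl on the other strand (0.433 CPM). Itgav shares 634 bases with the non-coding Gm13684 (2.79 CPM), Itga9 shares 40 with Gm2415 (0.859 CPM) and Itga6 shares 50 with Gm17250, all on the other strand. Reads in these stretches cannot be told apart by gene from the counts.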

How the data were processed

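Microglia of 50 mice gave 1 library each, and the values are integer counts per gene that the authors deposited for each mouse. Their processing notes name bcl2fastq 2.20, cutadapt 2.10, STAR, HTSeq 0.11.0 and the genome GRCm39. The gene models and the strandedness used for counting are not given.

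The filter kept 16696 of 53700 genes, those that reached 1 CPM in 3 mice or more. Libraries were scaled by TMM, and 6 group means were fitted in edgeR 4.0.16 (R 4.3.3, limma 3.58.1) with quasi-likelihood tests of 9 contrasts: age and LPS in each condition, stress at P9, after PBS and after LPS, and 2 interactions. P was adjusted by Benjamini-Hochberg over all genes of a contrast, and a gene was called at an adjusted p under 0.05. Intervals of 95% came from the standard error of the fit. Tables and plots were made in Python 3.11.15.

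Alternatives were the likelihood-ratio test, DESeq2 1.42.0, DESeq2's size factors in edgeR, no filter, edgeR's filterByExpr, a fit of only the groups compared, counts summed per nest, limma voom with the nest as a random effect, the nest number as a block among P200 mice, leaving out the 3 mice with fewer than 16000 genes above 0 counts, leaving out each mouse in turn, and calling only genes with an absolute log2 fold change above 1.

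RPKM used the union of exons in GENCODE vM39. Where a group held 1 to 3 counts, ratios of pooled counts are given with intervals, and where it held 0, a bound against 3 counts over the group. Both cover counting error only, not the spread between mice. From each list, up to 3 called genes in each direction with the largest change and a mean log2 CPM of at least 3 were named. The contrasts were tested on simulated data with known answers. The 10 subunits, the lists of other subunits, tail proteins, adhesion complex and ligands, and the marker lists (microglia, border-associated macrophage, neutrophil, monocyte, T, NK and B cell, platelet, endothelial, astrocyte, neuron, oligodendrocyte lineage, cell cycle) were chosen with earlier results of these data known. Some genes of these lists are counted in the totals but are not reported here.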

Additional observations from a re-analysis of the deposited data

Results flagged for a closer look

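In groups of 4 to 10 mice, a value was marked where the gap from 1 mouse to the nearest of the others was a large part of the whole range of its group by Dixon's test. Of 48 groups of values tested, 6 were marked. Chance flags about 1 in 20 groups where values are normally distributed, which those of Itgal and Itga4 near 0 counts are not. A single count among 0s is always marked, so the 6 cannot be set against that rate. Itgal stood at 0.0713 CPM in P200-CTR-PBS mouse 15-1, which is 1 count, and at 0 in the other 6 mice. Itgal stood at 1.5 CPM in P200-ELS-PBS mouse 11-1, and at 0 to 0.0804 CPM in the other 5. Itga4 stood at 4.31 CPM in P200-ELS-PBS mouse 17-2 and at 0 to 1.45 CPM in the others, and at 3.32 CPM in P200-ELS-LPS mouse 20-1 and at 0 to 0.68 CPM in the others. The library of P200-CTR-LPS mouse 1-3 held 42231258 counts, against 13900212 to 24367751 in its group. P200-CTR-PBS mouse 1-1 had 12854 genes above 0 counts, against 17424 to 19727 in its group.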

How the results depend on the processing

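Over the 834 values of the 10 subunits in alternatives other than leaving out 1 mouse, 785 kept their direction and call, 6 gained a call, 5 lost one and 38 changed sign, the last all uncalled before and after. Of the other named genes, 557 of 587 values kept their call and 30 lost it. Of 186 counts, 151 stayed within 1.5 times the count reported and 35 did not, and the cause of the changes was not tested. With the likelihood-ratio test, the calls were 1 genes for ELS at P9, 215 genes for ELS after PBS, 1 subunits for ELS after PBS, 10 genes for ELS after LPS, 29 genes for age by condition, 66 genes for LPS by condition, 1 subunits for LPS by condition. With DESeq2, the calls were 178 genes for ELS after PBS, 1 subunits for ELS after PBS, 2 genes for ELS after LPS, 20 genes for age by condition, 15 genes for LPS by condition, 1 subunits for LPS by condition, and Itgb5 for ELS at P9 was 0.0044, Itga4 for ELS at P9 was -0.0037, Itgb2 for LPS by condition was 0.0015 on the log2 scale. With DESeq2's size factors in edgeR, the calls were 6 genes for ELS after PBS, and Itgb5 for ELS at P9 was 0.0048, Itgb2 for LPS by condition was 0.0015 on the log2 scale. With no filter, the calls were 2 genes for ELS after PBS, and Itga4 for ELS at P9 was -0.0003, Itgb2 for LPS by condition was 0.0168 on the log2 scale. With filterByExpr, the calls were 2 genes for ELS after PBS, and Itgam for age in CTR was 0.0538, Itga9 for age in ELS was 0.0144, Itgb2 for LPS by condition was 0.0146 on the log2 scale. With only the groups compared, the calls were 1 subunits for LPS in CTR, 0 genes for ELS after PBS, 0 genes for age by condition, and Itgb5 for ELS at P9 was 0.0029 on the log2 scale. With counts summed per nest, the calls were 7 genes for ELS after PBS, 0 genes for age by condition, and Itgam for age in CTR was 0.0017, Itga9 for age in ELS was 0.0461, Itga4 for LPS in ELS was 0.52, Itga5 for age by condition was 0.0866, Itgb2 for LPS by condition was 0.0077 on the log2 scale. With limma voom, the calls were 1 subunits for LPS in CTR, 0 genes for ELS after PBS, 0 genes for age by condition, and Itga4 for LPS in ELS was 0.90, Itgal for LPS in ELS was 0.36, Itga5 for ELS at P9 was -0.30, Itgal for ELS at P9 was -0.12, Itga9 for ELS after PBS was -0.0308, Itga5 for age by condition was 0.42, Itgb2 for LPS by condition was 0.001, Itga4 for LPS by condition was 0.28 on the log2 scale. With the nest number as a replicate block among P200 mice, the calls were 1 subunits for LPS in CTR, 1 subunits for LPS in ELS, and Itga4 for LPS in ELS was 3.29, Itgb2 for LPS by condition was 0.0931, Itga4 for LPS by condition was 2.57, Itga9 for LPS by condition was 0.0273 on the log2 scale. Without the 3 mice with few genes, the calls were 3536 genes for LPS in ELS, 0 genes for age by condition, and Itgam for age in CTR was 0.0178, Itgav for LPS in CTR was -0.0786, Itgb2 for ELS at P9 was 0.018, Itga4 for ELS at P9 was -0.023, Itgam for ELS after PBS was -0.0016, Itga5 for age by condition was 0.17, Itgav for age by condition was -0.0743, Itga6 for age by condition was -0.0499, Itgb2 for LPS by condition was 0.0015, Itga5 for LPS by condition was -0.0397 on the log2 scale. With an absolute log2 fold change above 1 required as well, the calls were 4416 genes for age in CTR, 4 subunits for age in CTR, 4368 genes for age in ELS, 3 subunits for age in ELS, 1606 genes for LPS in CTR, 1313 genes for LPS in ELS, 1 subunits for LPS in ELS. As each mouse was left out in turn (leave-one-out), the calls ran over 1 to 83 genes for ELS after PBS, 0 to 6 genes for age by condition, 0 to 1 genes for ELS at P9, 0 to 1 genes for ELS after LPS, 0 to 4 genes for LPS by condition, 1 to 2 subunits for LPS in ELS. Values that changed sign there, none of them called, ran over Itgb5 for ELS at P9 -0.0708 to 0.0421, Itga4 for ELS at P9 -0.14 to 0.15, Itgal for ELS at P9 -0.20 to 0.14, Itga5 for age by condition -0.14 to 0.15, Itga9 for age in ELS -0.12 to 0.0985, Itgb2 for ELS at P9 -0.0766 to 0.0442, Itgam for age in CTR -0.0776 to 0.0183, Itgav for LPS in CTR -0.0788 to 0.10, Itgam for ELS after PBS -0.0604 to 0.14, Itga6 for age by condition -0.0275 to 0.10, Itgb2 for LPS by condition -0.0817 to 0.0344, Itga5 for LPS by condition -0.20 to 0.64, Itga9 for ELS after LPS -0.29 to 0.0967, Itga9 for LPS by condition -0.33 to 0.0553, Itgam for LPS by condition -0.0961 to 0.16, Itgb2 for ELS after LPS -0.0304 to 0.0858, Itgam for ELS after LPS -0.055 to 0.20, Itga4 for LPS in CTR -0.22 to 1.38, Itga4 for LPS by condition -2.57 to 0.96, Itgam for age in ELS -0.0175 to 0.18, Itga4 for LPS in ELS -2.09 to 1.46, Itgal for LPS in ELS -2.71 to 1.94, Itgb5 for LPS in ELS -0.11 to 0.23, Itgb1 for LPS in ELS -0.36 to 0.0182, Itgb5 for ELS after LPS -0.0556 to 0.28, Itga9 for ELS after PBS -0.0601 to 0.16, Itga5 for ELS after LPS -0.0039 to 0.83, Itga4 for ELS after LPS -0.74 to 1.85 on the log2 scale. With the nest number as a block, 2161 genes were called for LPS in CTR and 2123 for LPS in ELS, against 2493 and 2059. Of the nest numbers, 10 occur in mice given PBS and LPS, and the correlations of their deviations were -0.0411 to 0.0841. Among these, 0 were above 0.1, and the same number was the highest in 4 of 10. Low correlations cannot show whether mice with the same number share a nest. Limma voom fitted a nest correlation of 0.0778. The filter in the fit of only the groups compared dropped Itgal for LPS in both conditions and for ELS after PBS and after LPS, Itga4 for LPS in CTR and for ELS after LPS, and Itgb8 for LPS in CTR. Itga3 for age in CTR was dropped by filterByExpr and by the filter without P9-CTR mouse 17-2, 17-3 or 51-1.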

Other observations

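Itga5 after LPS stood at 60.7 to 112 and 236 to 706 CPM in control mice, and at 77.8 to 98.7 and 333 to 523 CPM in stressed mice. With so few mice, a split cannot be told apart from a graded spread. Control mice 1-3, 8-3 and 8-2, highest in Itga5, also had the highest Icam1 (4092, 3901 and 4920 CPM), Vcam1 (82.2, 75.8 and 138 CPM) and Zyx (326, 449 and 458 CPM). In Spp1 and Itgb7, mouse 1-2 (88.9 and 6.20 CPM) lay above mouse 8-3 (28.9 and 4.58 CPM). In P200-CTR-LPS, mice 8-2 and 8-3 had the highest Itga5 and Itgb3 and the lowest Itgav and Itgb5.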
